A study of Drosophila melanogaster with 10 samples.

Results

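CtsL2, Spn28B, CG6701 and MFS15 are 4 genes of the fruit fly Drosophila melanogaster whose expression in the larval eye-antenna disc shifted when the Notch ligand Delta was overexpressed, and whose shift was altered when COX7a was knocked down as well. They were chosen by these measured values, with CtsL2 and Spn28B higher and CG6701 and MFS15 lower in Delta discs. All 4 were found among the 11982 genes with a probe set annotated to a single gene, each through 1 probe set, and all 4 were among the 8702 genes tested. Testing required a level over 4.66 log2 units, the 40th percentile of all values and called the floor here, on 2 or more arrays. CtsL2, CG6701 and MFS15 met that filter through several genotypes, whereas Spn28B met it only through its 2 Delta arrays.

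The samples were 10 pools of 20 to 30 eye-antenna discs from early L3 larvae 96 h after egg laying, 2 biological replicates for each of 5 genotypes, each pool measured on 1 Affymetrix array. Every genotype carried ey-Gal4, which drives UAS transgenes only where the eyeless enhancer is active, so cells of the disc outside that domain are part of each pool. The genotypes were Notch intra (UAS-Notch[intra2], an intracellular form of the receptor), Delta with COX7a RNAi (UAS-Delta with UAS-COX7a-RNAi), Delta (UAS-Delta with UAS-GFP), COX7a RNAi (UAS-COX7a-RNAi) and GFP (UAS-GFP). The knockdown rests on 1 hairpin line, v106661, in both genotypes that carry it. In pools of discs, fewer cells of a type and less RNA per cell cannot be told apart.

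Delta on one cell binds the Notch receptor of its neighbour, and the receptor is then cut so that its intracellular part enters the nucleus and switches on target genes. In the eye disc this signal promotes growth along the dorsoventral midline, with eyegone (eyg) among the genes it acts through. COX7a belongs to cytochrome c oxidase, the last enzyme complex of the mitochondrial respiratory chain, which passes electrons to oxygen. CtsL2 carries the symbol of a cathepsin L, a class of cysteine proteases of the lysosome. Spn28B carries that of a serpin, a family best known for inhibiting serine proteases. MFS15 carries that of a transporter of the major facilitator superfamily, membrane carriers of small molecules. CG6701 has only a systematic name, and no role is given for it here.

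Both transgene targets were checked first. COX7A, as the probe annotation spells it, was at 10.88 and 11.20 log2 units in Delta with COX7a RNAi discs and at 10.50 and 10.54 in COX7a RNAi discs, against 13.41 and 13.32 in GFP discs and 13.21 and 13.29 in Delta discs. Delta mRNA was at 13.26 and 12.72 in Delta with COX7a RNAi discs and at 13.06 and 13.22 in Delta discs, against 11.20 and 11.16 in GFP discs. It differed by -0.15 ± 0.15 log2 units (SE) between Delta with COX7a RNAi and Delta (95% interval -0.49 to 0.19, limma's adjusted p = 0.683). COX7A was 0.52 ± 0.09 log2 units higher in Delta with COX7a RNAi than in COX7a RNAi discs (SE, limma's adjusted p = 0.0422). The knockdown was thus weaker in the combined genotype by this measure, although the call was lost when most single arrays were left out. How the probes of either gene lie relative to the transgenes was not used here.

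CtsL2 was high in both genotypes that activate the pathway without the hairpin. Its level was 7.40 and 7.47 log2 units in Notch intra discs, 5.19 and 5.38 in Delta with COX7a RNAi discs, 7.70 and 7.90 in Delta discs, 5.76 and 5.27 in COX7a RNAi discs, and 4.62 and 4.84 in GFP discs. Delta stood highest, followed by Notch intra, and neither overlapped any other genotype. COX7a RNAi and Delta with COX7a RNAi overlapped each other and both lay above GFP, where 1 of the 2 arrays was under the floor.

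Spn28B was above the floor in Delta discs alone. Its level was 5.93 and 6.58 log2 units there, against 3.69 and 3.86 in GFP discs. It was 3.62 and 4.28 in Notch intra discs, 3.58 and 3.81 in Delta with COX7a RNAi discs and 3.71 and 3.68 in COX7a RNAi discs. These 3 genotypes and GFP overlapped their neighbours in order of level, all of them under the floor, and no order is read from them.

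MFS15 was low in Delta discs and nearly level elsewhere. Its level was 7.52 and 7.50 log2 units in Notch intra discs, 7.47 and 7.36 in Delta with COX7a RNAi discs, 5.53 and 5.39 in Delta discs, 7.51 and 7.46 in COX7a RNAi discs, and 7.29 and 7.40 in GFP discs. In order of level, Notch intra, COX7a RNAi, Delta with COX7a RNAi and GFP each overlapped the next, and Delta stood apart below them.

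CG6701 was high in Notch intra and GFP discs, intermediate in both genotypes with the hairpin and lowest in Delta discs. It was at 9.57 and 9.70 log2 units in Notch intra discs and at 9.42 and 9.48 in GFP discs, which did not overlap. It was at 8.12 and 7.62 in Delta with COX7a RNAi discs and at 8.02 and 7.96 in COX7a RNAi discs, which overlapped each other. Delta discs were lowest, at 6.06 and 6.16, and overlapped no other genotype.

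**Figure D1:**
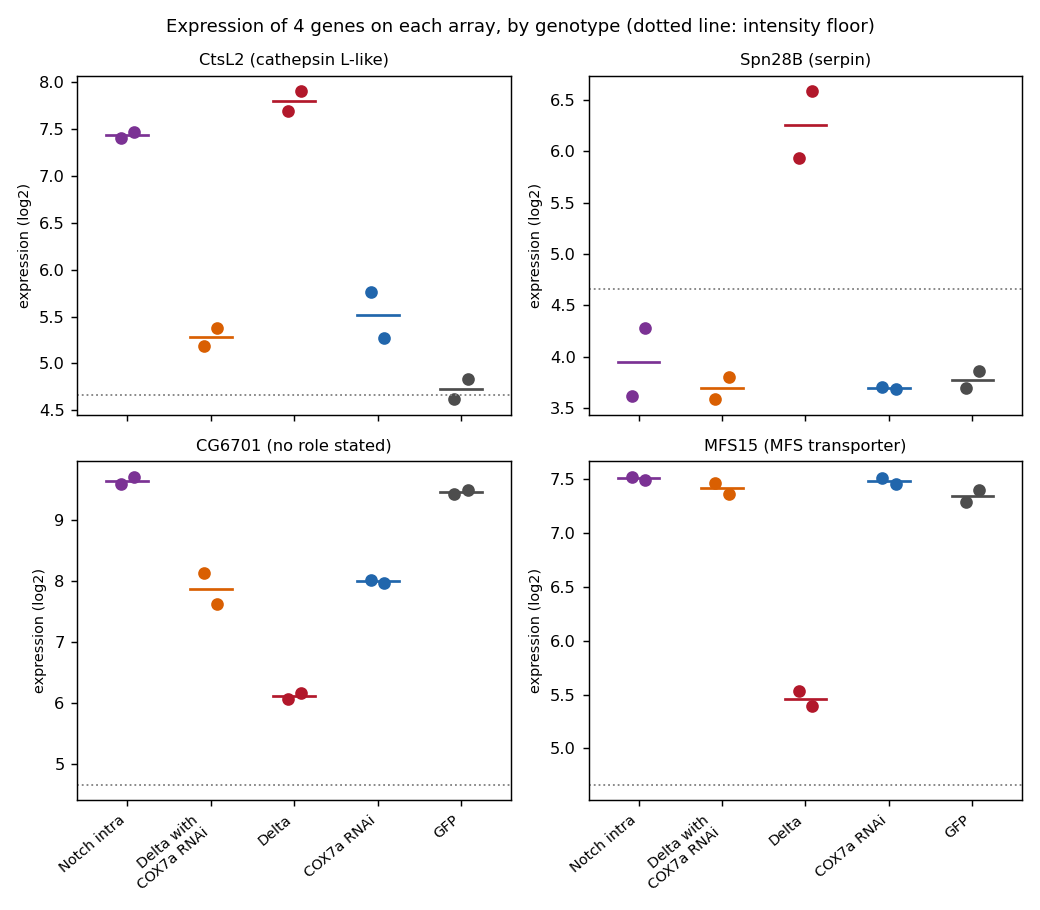
Log2 array level of CtsL2, Spn28B, CG6701 and MFS15 on each of the 10 arrays, by genotype, with points for arrays, bars for genotype means and the floor of 4.66 marked. The 2 Delta arrays are highest for CtsL2 and Spn28B and lowest for CG6701 and MFS15, and CG6701 has an intermediate level in both genotypes with the hairpin.

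The comparison of Delta with GFP chose the genes, so its values are given as a description with no test. The call rule used throughout, a Benjamini-Hochberg adjusted p under 0.05 in limma, called 2.38% of the 8702 genes there (117 higher and 90 lower), and nothing is read from the members' place among them. Delta minus GFP was 3.07 ± 0.17 log2 units for CtsL2 (SE, 8.42-fold), which ranked 3rd from the top of all genes tested. For Spn28B it was 2.49 ± 0.25, which ranked 5th from the top, with the GFP level under the floor. For CG6701 it was -3.34 ± 0.14, a 10.1-fold lower level and the 2nd lowest value, and for MFS15 it was -1.88 ± 0.08 (3.69-fold lower), the 5th lowest.

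Delta with COX7a RNAi minus Delta, which the choice also used, had the opposite sign in each gene. It was -2.52 ± 0.17 log2 units for CtsL2 (5.72-fold), -2.57 ± 0.25 for Spn28B, 1.76 ± 0.14 for CG6701 (3.39-fold) and 1.95 ± 0.08 for MFS15 (3.87-fold). The Spn28B value is measured against a level under the floor in the combined genotype, so no fold is given for it. That comparison called 3.75% of all genes. The interaction is the change that COX7a RNAi made in the Delta background minus the change it made alone. It was -3.31 ± 0.24 for CtsL2, -2.49 ± 0.35 for Spn28B, 3.22 ± 0.20 for CG6701 and 1.81 ± 0.12 for MFS15, in a comparison that called 0.575% of all genes.

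A reset to the GFP level describes MFS15 but not CG6701. For MFS15, Delta with COX7a RNAi minus GFP was 0.07 ± 0.08 log2 units (SE), which is -3.68% of the Delta change. For Spn28B it was -0.08 ± 0.25, but both levels lay under the floor, so it shows only that the gene was not above the floor in either genotype. CtsL2 remained 0.56 ± 0.17 higher than GFP, with 18.2% of its Delta change left. CG6701 stood 1.58 log2 units below GFP (-1.58 ± 0.14, 2.99-fold), with 47.3% of its Delta change left. The comparison of Delta with COX7a RNAi against GFP called 7.56% of all genes. It shares its GFP arrays with the Delta comparison, so these percentages are descriptions of the same 6 arrays.

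Set against COX7a RNAi discs, the combined genotype lay within 0.23 log2 units in each of the 4. Delta with COX7a RNAi minus COX7a RNAi was -0.23 ± 0.17 log2 units for CtsL2 (SE), 0.00 ± 0.25 for Spn28B, -0.12 ± 0.14 for CG6701 and -0.07 ± 0.08 for MFS15. For Spn28B both levels lay under the floor, so its value shows only that the gene was not above the floor in either genotype. That comparison called 0.896% of all genes. Had the Delta and COX7a RNAi changes added up on the log2 scale, CG6701 would have stood at 4.65 in the combined genotype, against 7.87 ± 0.35 measured (SD, n = 2). The sum for CtsL2 was 8.59, against 5.29 ± 0.13 measured.

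**Figure D2:**
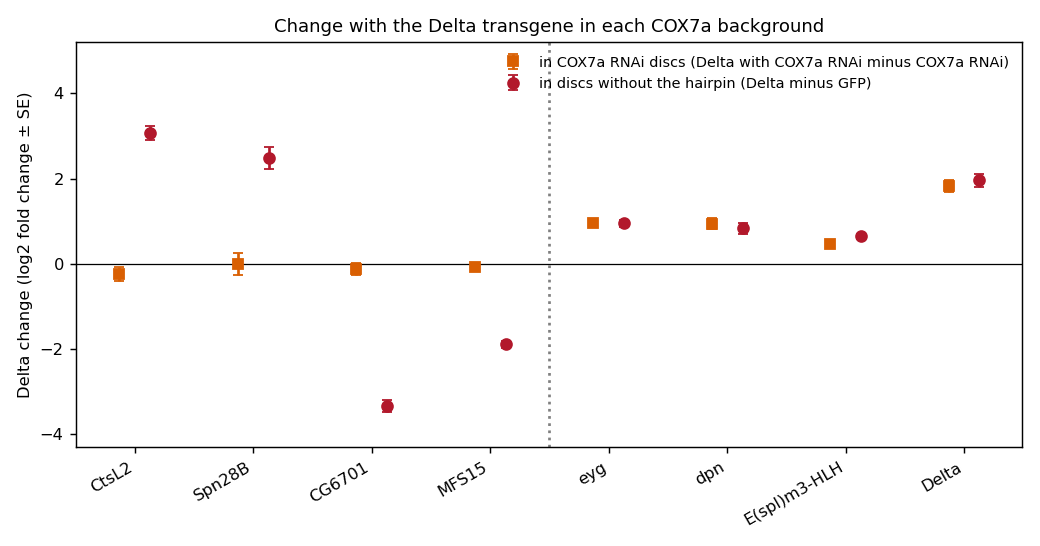
Log2 change due to Delta in the COX7a RNAi background (Delta with COX7a RNAi minus COX7a RNAi) and in the GFP background (Delta minus GFP) for the 4 genes, 3 Notch response genes and Delta mRNA, with bars for the SE. The 4 genes lie near 0 with the hairpin and at 3.07, 2.49, -3.34 and -1.88 without it, whereas eyg is at 0.96 and 0.95. Spn28B is under the floor in both genotypes with the hairpin and in GFP discs.

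Notch intra against GFP tests CtsL2, CG6701 and MFS15 in arrays of activated Notch that the choice did not use. The GFP arrays are shared with the Delta comparison. CtsL2 was higher by 2.71 ± 0.17 log2 units (SE, 6.54-fold, limma's adjusted p = 3.38e-05), with both Notch intra arrays above both GFP arrays. It ranked 13th from the top of all genes tested. CG6701, at 0.19 ± 0.14 log2 units (95% interval -0.14 to 0.51, limma's adjusted p = 0.433), did not pass the test. Neither did MFS15, at 0.16 ± 0.08 (interval -0.03 to 0.36, limma's adjusted p = 0.247). Spn28B passed the filter only through its Delta arrays and lay under the floor in both genotypes here. It was at 0.17 ± 0.25 (interval -0.40 to 0.74), and no test is read from it. Of CtsL2, CG6701 and MFS15, limma thus called CtsL2 alone, in a comparison that called 13.1% of all genes, 525 higher and 619 lower. The number called over all genes was 545 without GFP replicate 1, 555 without GFP replicate 2, 578 without Notch intra replicate 1 and 592 without Notch intra replicate 2.

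Set directly against each other, Notch intra and Delta lay closest in CtsL2. Notch intra minus Delta was -0.36 ± 0.17 log2 units for CtsL2 (SE), -2.31 ± 0.25 for Spn28B, 3.53 ± 0.14 for CG6701 and 2.05 ± 0.08 for MFS15. These values use the Delta arrays that chose the genes and are given without a test, in a comparison that called 9.55% of all genes.

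COX7a RNAi alone against GFP is a term of the interaction, so the choice used it in part, and the 4 genes' values there are given as a description with no test. That comparison called 4.53% of all genes, 394 in all, with 127 without GFP replicate 1 and 158 without GFP replicate 2. COX7a RNAi minus GFP was -1.46 ± 0.14 log2 units for CG6701 (SE, 2.75-fold lower), with both COX7a RNAi arrays below both GFP arrays. For CtsL2 it was 0.79 ± 0.17 (1.73-fold), with both COX7a RNAi arrays above both GFP arrays, and it ran from 0.54 to 1.04 when 1 array was left out. For MFS15 it was 0.14 ± 0.08 (95% interval -0.05 to 0.34). For Spn28B, under the floor in both genotypes, it was -0.08 ± 0.25 (interval -0.65 to 0.49).

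The signs differ from gene to gene. For CG6701, COX7a RNAi alone and Delta alone each went with a lower level than GFP, and the level with both lay above that with Delta alone. For CtsL2, COX7a RNAi alone and Delta alone each went with a higher level, and the level with both lay below that with Delta alone. Across the 10 arrays, Spn28B and MFS15 had a Pearson correlation of -0.97, with the 2 Delta arrays standing apart from the other 8 in both genes. On those other 8 arrays Spn28B lay under the floor. CG6701 and MFS15 had a correlation of 0.81, and CtsL2 and CG6701 one of -0.37. All 4 genes were chosen for a change in Delta discs, so these correlations are descriptions.

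Genes known to respond to Notch were listed to set beside the 4, with 17 named, 14 measured and 12 tested. In Notch intra discs 9 of the 12 rose and 0 fell, with a median change of 1.30 log2 units from GFP, and 6 were called without Notch intra replicate 1. In Delta discs 4 rose and 0 fell, with a median of 0.66, and 2 were called without GFP replicate 2, Delta replicate 1 or Delta replicate 2. Between Delta with COX7a RNAi and Delta, limma called 0 of the 12, 1 had an unadjusted p under 0.05, and the median was -0.11. Over all 8702 genes the median was 0.03 in Notch intra discs, 0.02 in Delta discs and -0.01 between Delta with COX7a RNAi and Delta. The interaction called 0 of the 12, with 0 at an unadjusted p under 0.05. Between Delta with COX7a RNAi and COX7a RNAi, 3 of the 12 rose and 0 fell (median 0.46), beside 0.391% of all genes called higher. Those 3, eyg, dpn and E(spl)m3-HLH, are described next. E(spl)m2-BFM, with the largest Delta minus GFP value of the 12 (1.00, limma's adjusted p = 0.023), was not called there (0.71, limma's adjusted p = 0.139).

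eyg, a transcription factor gene of disc growth, was at 11.55 and 11.72 log2 units in Notch intra discs, 9.94 and 9.92 in Delta with COX7a RNAi discs, 9.89 and 9.90 in Delta discs, 9.07 and 8.88 in COX7a RNAi discs, and 9.02 and 8.87 in GFP discs. All 4 arrays with Delta lay above the COX7a RNAi and GFP arrays, whether or not the hairpin was present, and below the Notch intra arrays. The change from Delta was 0.96 ± 0.08 in the COX7a RNAi background (SE, limma's adjusted p = 0.00208) and 0.95 ± 0.08 in the GFP background (limma's adjusted p = 0.000687). Delta with COX7a RNAi minus Delta was 0.03 ± 0.08 (95% interval -0.16 to 0.22, limma's adjusted p = 0.897).

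deadpan (dpn), which encodes a Hairy-related repressor, had a change from Delta of 0.94 ± 0.13 log2 units in the COX7a RNAi background (SE, limma's adjusted p = 0.0153) and of 0.84 ± 0.13 in the GFP background (limma's adjusted p = 0.0119). Its call in the COX7a RNAi background was lost without COX7a RNAi replicate 2 or either Delta with COX7a RNAi array (adjusted p up to 0.0707), and that in the GFP background without GFP replicate 2 or either Delta array (up to 0.092). E(spl)m3-HLH, a gene of the Enhancer of split complex, rose by 0.48 ± 0.06 from Delta in the COX7a RNAi background (limma's adjusted p = 0.00922). That call was lost without COX7a RNAi replicate 1. In the GFP background it rose by 0.65 ± 0.06 (limma's adjusted p = 0.00094). Delta with COX7a RNAi minus Delta was -0.21 for E(spl)m3-HLH (limma's adjusted p = 0.0993) and 0.02 for dpn (limma's adjusted p = 0.954).

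**Figure D3:**
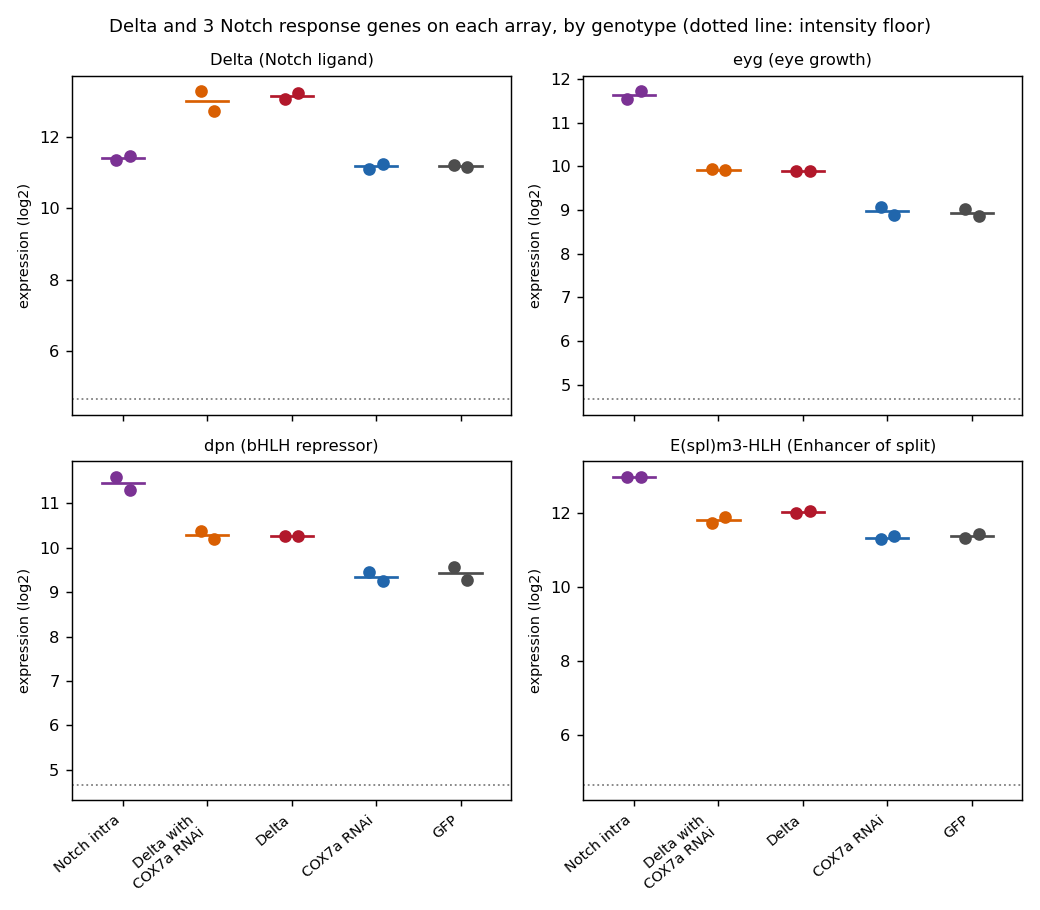
Log2 array level of Delta and of the Notch response genes eyg, dpn and E(spl)m3-HLH on each of the 10 arrays, by genotype, with points for arrays and bars for means. eyg lies between 9.89 and 9.94 on all 4 arrays with Delta and between 8.87 and 9.07 on the COX7a RNAi and GFP arrays.

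The relatives of the members, taken by symbol, were examined in the same fit. Of 7 other cathepsin genes, 6 were tested, and their Delta minus GFP values ran from -0.10 to 0.00 log2 units (median -0.05), with 0 called by limma and 0 at an unadjusted p under 0.05. Between Delta with COX7a RNAi and Delta, limma called 0 of the 6, and 3 had an unadjusted p under 0.05. In Notch intra discs, where CtsL2 rose, 0 of the 6 rose and 2 fell, CtsF by 0.28 and CtsB by 0.24 log2 units, beside 7.11% of all genes called lower. Only 1 of the 6 was called without GFP replicate 2, either COX7a RNAi array or Notch intra replicate 2.

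Among 27 other serpin genes, 18 were tested. In Delta discs 1 of the 18 rose and 0 fell, with a median of -0.03 log2 units. This was Spn47C, at 1.21 ± 0.15 log2 units over GFP (SE, limma's adjusted p = 0.00448, and 0.0512 without GFP replicate 1). Spn28Dc rose by 1.07 ± 0.11 in Delta with COX7a RNAi discs relative to Delta (limma's adjusted p = 0.00148) and by 0.93 ± 0.11 in COX7a RNAi discs relative to GFP (limma's adjusted p = 0.00261), where Spn28B had -2.57 and -0.08. The interaction called 0 of the 18, with 4 at an unadjusted p under 0.05.

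Of 9 other genes with an MFS symbol, 8 were tested. In Delta discs limma called 0 of the 8 (median -0.08 log2 units), with 1 at an unadjusted p under 0.05, and between Delta with COX7a RNAi and Delta it called 0, with 2 at an unadjusted p under 0.05. In Notch intra discs 0 rose and 2 fell, MFS14 by 0.88 and MFS3 by 0.85 log2 units. MFS14 is the gene next to MFS15 in the chromosomal order, and MFS15 itself did not pass the test in those discs.

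Chromosomal neighbours were compared after the members' values had been seen, with 4 protein-coding genes taken on each side of each member in RefSeq's gene order for the Release 6 plus ISO1 MT assembly. Of these 32 genes, 29 had a probe set and 21 were tested. In Delta discs 1 of the 21 rose and 1 fell, beside 2.38% called of all genes, and 0 were called without GFP replicate 2 or Delta replicate 1. The gene that fell was CG6739, 2nd from Spn28B, at -0.51 ± 0.07 log2 units (SE, limma's adjusted p = 0.00813). Between Delta with COX7a RNAi and Delta 2 rose, RapGAP1 next to Spn28B by 0.68 and Phb2, 3rd from MFS15, by 0.35, and 1 fell. The gene that rose in Delta discs was Syngr, the synaptogyrin gene, which encodes a synaptic vesicle membrane protein and lies 2nd from CtsL2. It was also the gene that fell between Delta with COX7a RNAi and Delta. Syngr was at 6.44 and 5.90 log2 units in Delta with COX7a RNAi discs and at 7.35 and 7.33 in Delta discs, against 6.22 and 6.31 in GFP discs.

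Delta minus GFP was 1.07 ± 0.16 log2 units for Syngr (SE, limma's adjusted p = 0.01), and Delta with COX7a RNAi minus Delta was -1.17 ± 0.16 (limma's adjusted p = 0.00551). The first call was lost without either Delta array or either GFP array, where the adjusted p reached 0.0897, and the second without Delta replicate 1, with 0.0503. Unlike CtsL2, Syngr did not pass the test in Notch intra discs, at -0.27 ± 0.16. The genes directly next to CtsL2 were CG6337, with a Delta minus GFP value of -0.10, and CG6357, with -1.18 ± 0.36, which did not pass limma's test (adjusted p = 0.164). In Notch intra discs, where CtsL2 rose, CG6357 was at -2.41 relative to GFP (limma's adjusted p = 0.00325) and CG6337 at -0.05 (limma's adjusted p = 0.834). Of the 21 tested neighbours, 2 rose and 3 fell there. The 5 tested neighbours of CG6701, mastermind (mam) among them, which encodes a coactivator of Notch, included 0 calls in Delta discs, and mam itself was at -0.07.

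**Figure D4:**
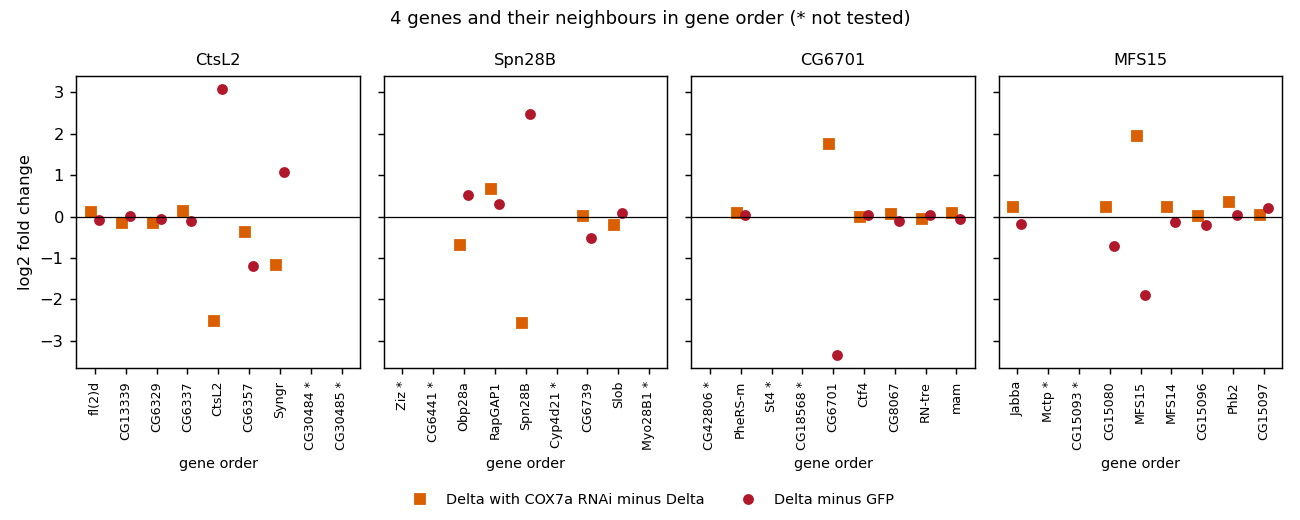
Log2 change of each member and its tested neighbours, in gene order with 1 panel per member, for Delta with COX7a RNAi minus Delta and for Delta minus GFP. Among the neighbours, Syngr, 2nd from CtsL2, has opposite signs in the 2 comparisons, at -1.17 and 1.07, and CG6357, next to CtsL2, has negative values in both, at -0.36 and -1.18.

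Genes whose levels over the 10 arrays were most like a member's were named by Pearson correlation among 847 genes with a range of at least 1 log2 unit. They were picked on the arrays that also chose the members, and their values are descriptions. For CtsL2 they were mtrm (0.95), an inhibitor of Polo kinase in oocyte meiosis, tej (0.95), a Tudor-domain gene of the germline piRNA pathway, pip (0.93), a sulfotransferase gene of egg patterning, pinta and Taf12L (0.91 each). tej had a Delta with COX7a RNAi minus Delta value of -2.00 ± 0.14 log2 units (SE), a Delta minus GFP value of 1.81 ± 0.14 and a Notch intra minus GFP value of 1.20 ± 0.14, the same signs as in CtsL2.

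For Spn28B the nearest were Gr28b (0.95), a gustatory receptor gene, AstC (0.94) and sNPF (0.92), which encode neuropeptides, with CG18746 (0.93) and Mrp5 (0.88). sNPF was at 7.84 and 8.43 log2 units in Delta discs, against 4.49 and 3.91 in GFP discs. AstC was at 6.94 and 6.60 in Delta discs, against 3.99 and 4.16 in GFP discs. As in Spn28B, both stood under the floor in GFP discs and above it in Delta discs. Spearman's rho, at 0.37 for Gr28b and 0.42 for sNPF, was lower than Pearson's correlation.

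For MFS15 the nearest were otk2 (0.94), of the off-track receptor family, Pepck1 (0.83) and Pepck2 (0.78), which encode phosphoenolpyruvate carboxykinases, CG6701 (0.81) and out (0.78). Pepck1 was at 12.11 and 12.00 log2 units in Delta with COX7a RNAi discs, 9.20 and 9.04 in Delta discs, 12.22 and 12.46 in COX7a RNAi discs and 10.76 and 11.11 in GFP discs. In contrast to MFS15, it was thus above GFP on all 4 arrays with the hairpin. For CG6701 they were obst-E (0.92), which encodes a chitin-binding protein, CG6426 (0.84), Ir76a, Ktch and CG1441 (0.83 each).

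Of 10 marker genes of the eye-antenna disc, 9 were measured, with a mean above the floor for 9 of 9 in the Delta with COX7a RNAi, Delta, COX7a RNAi and GFP discs and for 8 of 9 in Notch intra discs. In Notch intra discs 1 of the 9 rose, ey by 0.37 log2 units, and 3 fell, the antennal genes ss by 3.95 and Dll by 2.46 and the eye gene Optix by 0.75. The others, eya, so, dac, oc and salm, were not called there. They were at -0.20, 0.06, -0.04, -0.48 and -2.45 log2 units in that order, with limma's adjusted p = 0.0602 for salm. In Delta discs 0 of the 9 rose and 1 fell, Optix by 0.36. Markers of other tissues that dissected discs can carry were 48 genes, of which 40 were measured and 32 tested. In Delta discs limma called 0 of the 32, with 3 at an unadjusted p under 0.05, and between Delta with COX7a RNAi and Delta it called 0, with 2 at an unadjusted p under 0.05. In Notch intra discs, where 13.1% of all genes were called, 14 of the 32 had an unadjusted p under 0.05 in limma. By limma's call 1 of the 32 rose there, the hormone gene Akh, and 6 fell. Those that fell were repo and moody of glia, serp and Gasp of trachea, and Act87E and Mp20 of muscle. These 7 became 11 called markers without Notch intra replicate 2. In COX7a RNAi discs 3 were called, with Akh higher and serp and Gasp lower, and 1 without GFP replicate 1. The tracheal pair was also lost without COX7a RNAi replicate 2. In Delta with COX7a RNAi discs 3 tracheal markers fell relative to GFP, and 0 did so without either GFP array or Delta with COX7a RNAi replicate 2. The summed linear level of the 5 muscle markers was 983.5 to 1024 in Notch intra discs, against 2509 to 3057 in GFP discs. It was 2017 to 2660 in Delta with COX7a RNAi discs, 2321 to 4236 in Delta discs and 1908 to 2564 in COX7a RNAi discs. That of the 3 ring gland markers, Akh among them, was 769.6 to 1399 in Notch intra discs, 281.9 to 302.4 in Delta with COX7a RNAi discs, 286.3 to 354.9 in Delta discs and 575.4 to 740 in COX7a RNAi discs, against 224.9 to 372.7 in GFP discs. It thus lay above the GFP range in Notch intra and COX7a RNAi discs and within that range in Delta and Delta with COX7a RNAi discs. CtsL2 stood above GFP in each of these genotypes, and nothing about its source is read from this. Of the 3 ring gland markers, limma called only Akh in Notch intra and COX7a RNAi discs. In Notch intra discs sad was at 1.22 log2 units relative to GFP (limma's adjusted p = 0.192) and dib at -0.0045 (limma's adjusted p = 0.992). Of the 7 haemocyte markers tested in Notch intra discs, limma called 0, and 4 had an unadjusted p under 0.05 (median 0.60 log2 units). In Delta discs limma called 0 of these 7, with 0 at an unadjusted p under 0.05 (median 0.235). The part of the disc, haemocyte, muscle and ring gland markers in the CtsL2 values was not tested.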

How the data were processed

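Expression was measured on 10 1-colour Affymetrix arrays. The authors' deposited values are on the log2 scale, from 2.58 to 14.84, with array medians of 5.17 to 5.23. RMA, Transcriptome Analysis Console 3.0.0.466 and Affymetrix Expression Console appear in the submitters' processing notes, with no role given to any. The genome build, scan dates and detection calls are not given in the sources used here, so batches could not be tested. Precision is limited by how few arrays there were. RMA makes array distributions alike, which would remove a change shared by most genes.

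Of 18769 probe sets other than controls, 13647 had 1 gene in the platform annotation, which can be old, 402 had several and 4720 had none. Each gene was represented by its single-gene probe set with the highest mean. Groups came from the genotypes in the labels. limma 3.58.1 in R 4.3.3 was fitted to all 10 arrays with a mean for each genotype, leaving 5 residual degrees of freedom, and an intensity trend, two-sided, with Benjamini-Hochberg adjustment over 8702 genes. With 2 arrays a genotype, the p-values depend on pooling the spread of all genotypes. The fit was tested on simulated data. Replicate arrays correlated at 0.997 to 0.998 and genotypes at 0.989 to 0.997.

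COX7a RNAi against GFP had been planned as a test for the members, but the interaction contains it, so their values there carry no p. The members and the gene lists were chosen with earlier results of these data known. Besides the members, the genes named were transgene targets, some genes of the lists, and the 5 genes most correlated with each member. Not every called gene of the lists was named. The genes nearest to the members in the gene order were added after values were seen. The planned protein relatives and promoter motifs were not run, because no sequence tables were used here. The alternatives tried were other filters, no trend, robust eBayes, a replicate block, other scalings, other probe set rules, a fit on the compared groups alone and leaving out each array.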

Additional observations from a re-analysis of the deposited data

Results flagged for a closer look

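In CtsL2, COX7a RNAi went with a lower level in the Delta background (-2.52 log2 units) and a higher one alone (0.79), and every array of each pair of genotypes lay on its side. In CG6701 it went with a higher level in the Delta background (1.76) and a lower one alone (-1.46). The genes were chosen on this difference between the backgrounds, which was not tested.

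The interaction passed limma's test in 6 other named genes. It was -2.81 log2 units for Akh, the adipokinetic hormone gene and a ring gland marker, and -1.49 for Syngr, the neighbour of CtsL2, both with an adjusted p of 0.0311. Left out singly, 7 of the 10 arrays ended the Akh call, with an adjusted p as high as 0.132, and 8 of the 10 ended the Syngr call, with one as high as 0.145. The other 4 had been picked for their likeness to a member over the same arrays, so their calls are no independent evidence. Among them, AstC at -2.58 and sNPF at -3.57 had means under the floor in every genotype but Delta. AstC passed the filter only through its 2 Delta arrays, and no test is read from either gene. The remaining ones were tej at -1.80 and Pepck1 at 1.53. Of these, tej had an adjusted p of 0.0586 without GFP replicate 1, and Pepck1 one of up to 0.0565 without Delta replicate 2 or Delta with COX7a RNAi replicate 1.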

How the results depend on the processing

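Under the alternatives, 137 of 150 member values in Notch intra and COX7a RNAi against GFP kept their direction and side of the threshold. In the other comparisons 418 of 450 values moved by less than the gene's residual SD, within which a small value could change sign. Of 152 counts of called genes, 115 kept a size close to the main one. CtsL2 in Notch intra against GFP kept its call without any 1 array (adjusted p of at most 0.000695). CtsL2 in COX7a RNAi against GFP stayed at 0.79 log2 units with the 60th percentile filter, no trend, the replicate block and the compared groups alone, and ran from 0.54 to 1.04 without 1 array. Its adjusted p, on which nothing rests here, crossed the threshold under each of these 4 settings and without 7 of the 10 arrays, and the cause was not tested. The deviations of arrays with the same replicate number correlated at -0.22 to 0.38, over 0.1 in 2 of 10 genotype pairs. Whether such arrays share a batch in some genotypes could not be tested. With the number as a replicate block, 1140 genes were called in Notch intra against GFP and 336 in COX7a RNAi against GFP, and CtsL2 in Notch intra against GFP had an adjusted p of 0.000134. With the compared groups alone, the fit called 187 genes in COX7a RNAi against GFP, 366 in Delta against GFP, 118 in Delta with COX7a RNAi against Delta, 328 in Delta with COX7a RNAi against GFP and 10 in Delta with COX7a RNAi against COX7a RNAi, where fewer arrays enter. Leaving out 1 array gave 545 to 1250 calls in Notch intra against GFP, 127 to 443 in COX7a RNAi against GFP, 74 to 245 in Delta against GFP, 104 to 371 in Delta with COX7a RNAi against Delta, 16 to 42 in the interaction, 206 to 772 in Delta with COX7a RNAi against GFP, 41 to 105 in Delta with COX7a RNAi against COX7a RNAi and 311 to 979 in Notch intra against Delta. The lone array was then assumed to vary like the other genotypes. Under the floor, Spn28B turned to 0.0065 in COX7a RNAi against GFP without GFP replicate 2 (range -0.16 to 0.0065) and to -0.16 in Notch intra against GFP without Notch intra replicate 2 (range -0.16 to 0.50), and the 60th percentile filter left it out. CtsL2 in Delta with COX7a RNAi against COX7a RNAi turned to 0.0162 without COX7a RNAi replicate 1 (range -0.478 to 0.0162). There CG6701 ran from -0.37 to 0.13, with 0.13 without Delta with COX7a RNAi replicate 2, and Spn28B from -0.11 to 0.11, so neither has a settled sign.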
